A study of Mus musculus with 6 samples.

Results

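Semaphorins, plexins and neuropilins were examined as a family of 31 genes in spinal cord arrays from Nkx2.9 mutant and wild-type mouse embryos. The members were found by gene symbol, from a list proposed with results of these arrays known, and all 31 had a row of the array table annotated to that symbol alone, out of 19920 genes with such a row. They comprised 7 secreted Sema3 genes, 13 genes of the Sema4 to Sema7 classes (transmembrane, except the lipid-anchored Sema7a), 9 plexins and 2 neuropilins. The tissue was the cervical cord at embryonic day 11.5 (E11.5), from which the floor plate and the dorsal portion had been removed. Of the 6 arrays 3 carried the label Nkx2.9 knockout and 3 the label wild type, lettered A, B and C within each genotype; all shared the stage, tissue and amplification. The arrays with the mutant label are called knockout arrays below. The labels name neither the allele, the strain, the age beyond the stage, nor whether an array holds a single embryo or a pool, so the p-values cover the spread between these arrays, which may be technical. Nkx2.9 is a homeodomain transcription factor of the ventral neural tube, and the series asked which genes it controls in spinal accessory motor neurons; those neurons send their axons out of the cord through a lateral exit point.

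Semaphorins are guidance proteins that share a sema domain and steer growing axons, most often by repulsion. Plexins are their signalling receptors. Secreted Sema3 proteins generally need a neuropilin to hold them to an A-type plexin, while most membrane-bound semaphorins bind plexins directly. In the embryonic spinal cord these proteins pattern sensory afferents, commissural axons and motor axons, and motor neurons carry neuropilins and A-type plexins as they grow into the limb and trunk.

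Each deposited value was on a log2 scale with the gene's own median over the 6 arrays subtracted. A value of 0 therefore marks that median, and a difference of 0.58 between arrays is 1.5-fold. Levels could not be compared between genes, and no value showed whether a member stood above background or whether the labelled tissue expressed its defining markers. Nkx2-9 itself checked nothing: its mean was 0.10 ± 0.17 on the knockout arrays and -0.08 ± 0.14 on the wild-type arrays (SD, n = 3; exact two-sided permutation p = 0.2, where the smallest possible was 0.1), and whether its probes lie in the deleted part is not known. The difference of 0.18 lay between 0.10 and 0.27 with single arrays left out and passed an unadjusted threshold of 0.05 in limma without knockout A (0.27). With a term for the arrays of high Xist, knockout B and C, it was 0.01. That term leaves knockout A alone to be compared with the wild type. Directions below rest on the labels. 2 arrays stood apart in other genes. The array labelled knockout C had a median of 1.06 over 8 mesenchyme markers and 0.76 over 8 vessel markers, against -0.07 to 0.16 and -0.14 to 0.11 on the other 5 arrays. The mesenchyme markers were not uniform: on knockout C they ran from -0.24 (Dcn) and 0.03 (Col1a1) to 3.31 (Lum). On wild-type B they ran from -2.02 (Dcn) to 1.66 (Lum). Wild-type B had a median of -0.55 over 7 cell cycle genes, against -0.11 to 0.26 elsewhere, and the highest neuronal median, 0.16. All 7 cell cycle genes had higher means on the knockout arrays (median difference 0.34), with the genotypes overlapping in each. The medians of 10 neuronal markers were -0.03, -0.00 and -0.16 on knockout arrays A to C and 0.04, 0.16 and -0.02 on wild-type arrays A to C. Means were lower on the knockout arrays for 9 of the 10, with a median difference of -0.13. The 4 floor plate markers all had higher means on the knockout arrays, with a median difference of 0.18, in tissue dissected without the floor plate per the labels. Of these 2, Foxa2 and Spon1, were higher without overlap, as were 1357 of all 19920 genes. Shh (0.14) and Ntn1 (0.03) overlapped, and knockout C was the lowest array of Ntn1, at -0.18. Medians of 6 posterior Hox genes lay between -0.59 and -0.28 on the knockout arrays and between 0.24 and 0.79 on the others, without overlap. Knockout B and C alone had high Xist (4.56 and 4.91, against -0.25 to 0.11) and low Y-linked genes. The part of these in the members' values was not tested, except as stated beside single genes. In bulk tissue, fewer cells of a type and less RNA per cell cannot be told apart.

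**Figure D1:**
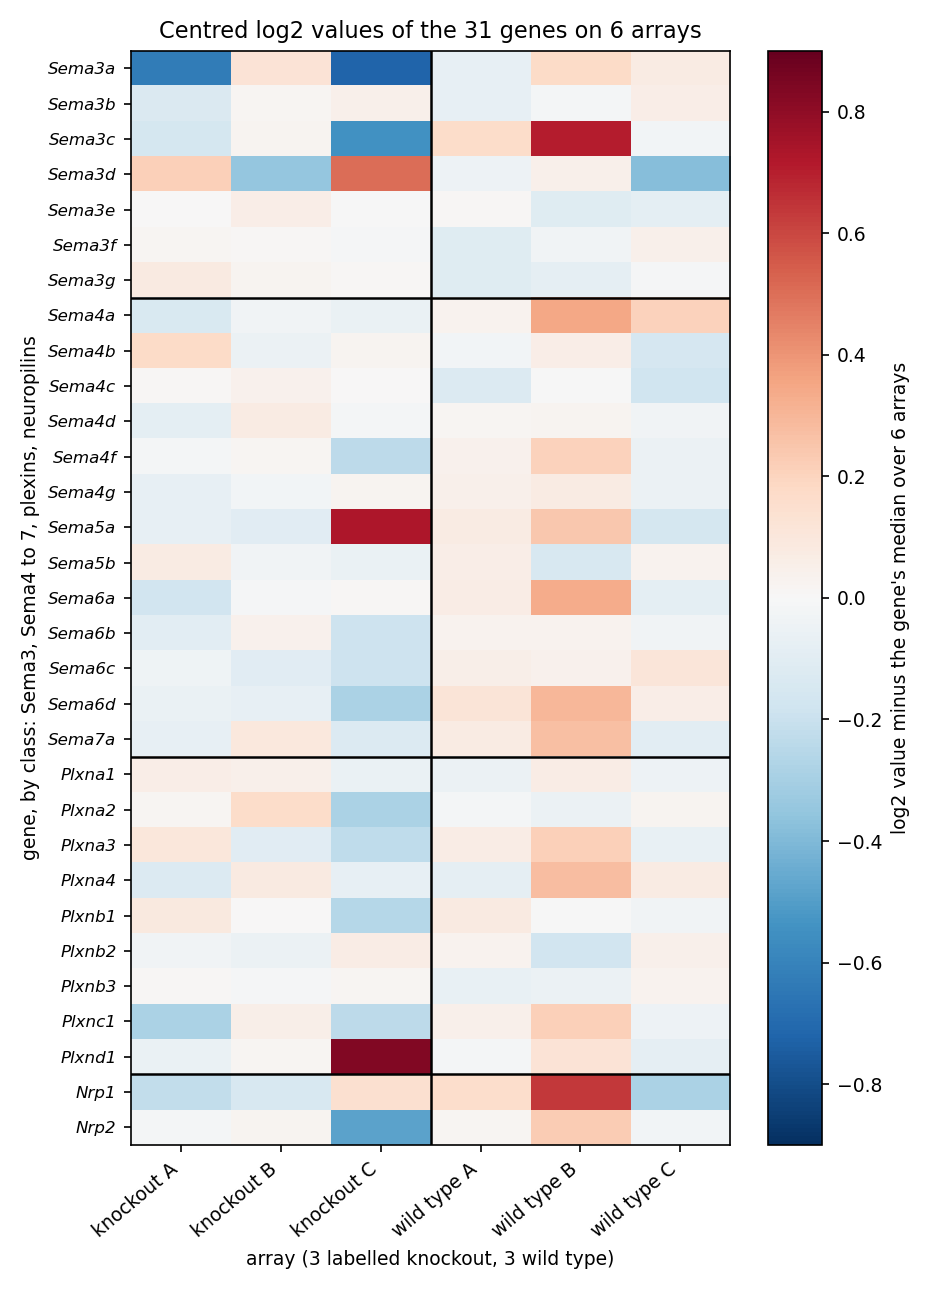
Heat map of the centred log2 value of each of the 31 genes (rows, in their 4 classes) on the 6 arrays (columns, 3 labelled knockout and 3 wild type); red is above and blue below the gene's median over the arrays. Wild-type B holds the highest value of 14 genes and knockout C the lowest value of 12.

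No member passed the threshold of 0.05 after adjustment over the whole table (limma adjusted p from 0.812 to 0.986), and neither did any gene (0% of 19920). At an unadjusted p under 0.05 there were 3 members, all lower on the knockout arrays: Sema6c, Sema6d and Sema4a. Over all genes, 6.06% passed that threshold and 2.76% did so in the lower direction. The arrays of the genotypes did not overlap in 5 members, 3 lower (the same Sema6c, Sema6d and Sema4a) and 2 higher (Sema3g and Sema4c). Among all genes the groups did not overlap in 11.2%, and in 4.37% with the knockout lower. Single arrays moved these counts: without knockout B 8 members were at an unadjusted p under 0.05 (11.1% of genes) and 10 did not overlap (28.4%), and without wild-type C the counts were 6 (6.73%) and 12 (24.7%). These counts are a description.

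Differences in the family were small. Of the 31 members 19 were lower and 12 higher on the knockout arrays; the median difference was -0.05 on the log2 scale. Over all genes that median was 0.01, and 44.9% of genes were lower. With all 6 arrays no member reached 1.5-fold, and only 72 of the 19920 genes did. The largest differences were those of Sema3c (-0.51) and Sema3a (-0.47), both secreted ligands. The 95% interval of the difference lay inside 1.5-fold in either direction for 24 members (77.4%), against 94% of all genes. It reached past 1.5-fold for Sema3a, Sema3c, Sema3d, Sema5a, Plxnd1, Nrp1 and Nrp2, so for these 7 a difference of that size lay within the interval. The pooled within-group SD was above the all-gene median of 0.09 in 20 of the 31 members, against 50% of all genes by definition. These were 11 of the 20 semaphorins (3 of the 7 Sema3 genes among them), 7 of the 9 plexins and both neuropilins. The semaphorins were thus close to the all-gene share. By class the median difference was 0.03 for secreted Sema3 genes, -0.09 for the Sema4 to Sema7 genes, -0.02 for plexins and -0.24 for the 2 neuropilins (-0.08 when wild-type B was left out, -0.37 when wild-type C was). Without knockout B the medians of the Sema4 to Sema7 genes, the plexins and the whole family were -0.15, -0.10 and -0.10; without wild-type B the first and last were -0.05 and -0.03. The plexin median turned positive with array weights, quantile normalization or a term for Xist (0.014, 0.003 and 0.03). The last of these compares the genotypes through knockout A alone. The Sema3 median was -0.004 without wild-type A and 0.07 without wild-type C.

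**Figure D2:**
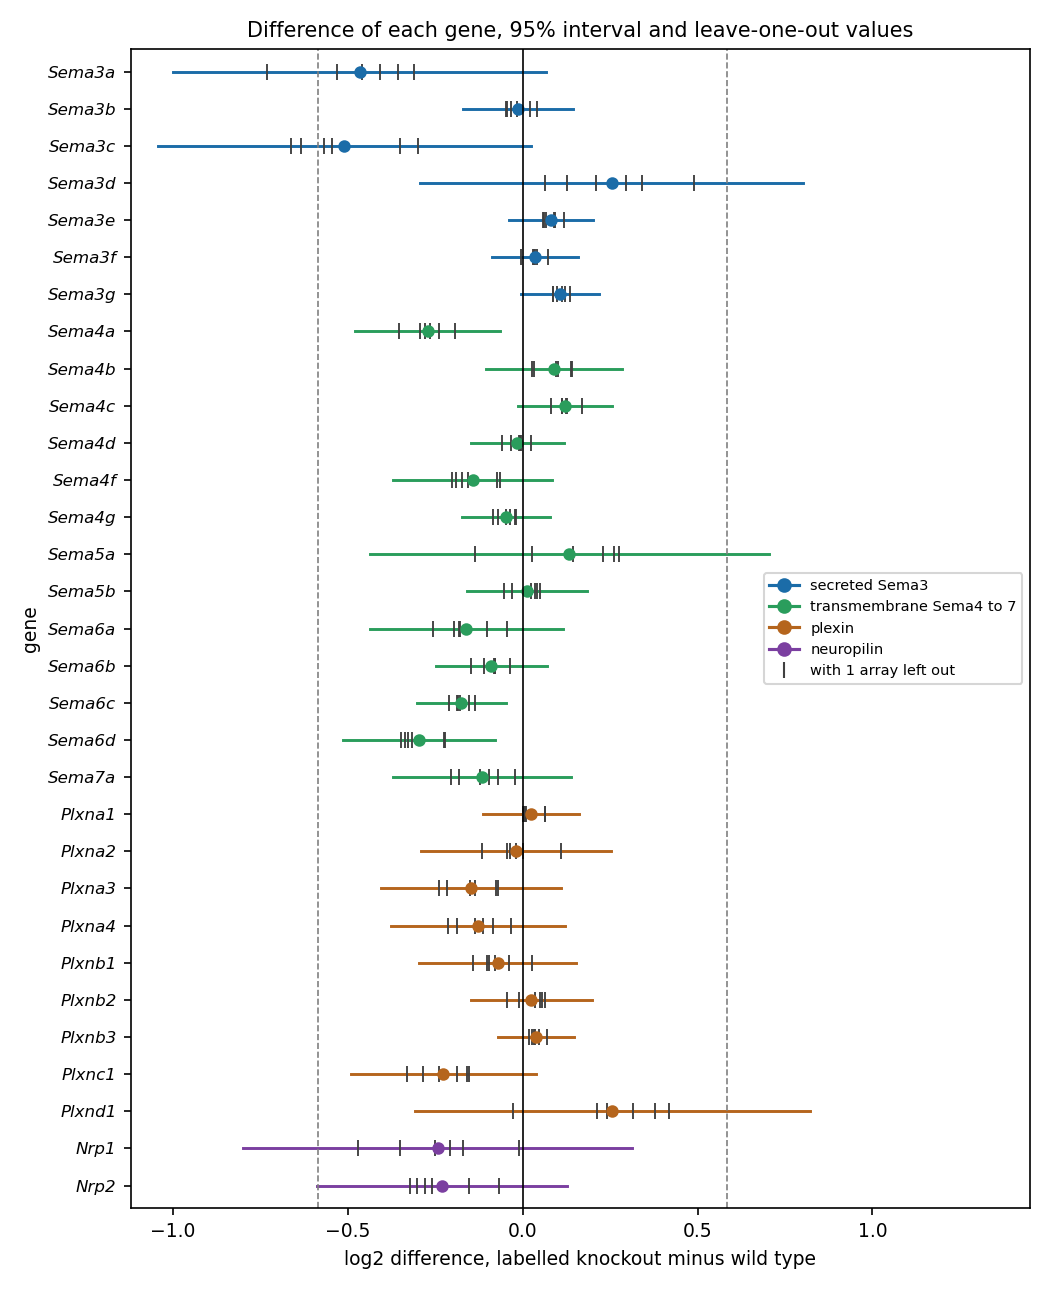
Difference of each gene, labelled knockout minus wild type, on the log2 scale (points), with limma's 95% interval (bars, coloured by class) and the difference with each array left out in turn (ticks); dashed lines mark 1.5-fold. The intervals of Sema4a, Sema6c and Sema6d lie below 0, and no point reaches 1.5-fold.

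Of the 3 members past the unadjusted threshold 2 were class 6 transmembrane ligands. These proteins bind A-type plexins and can also act as receptors in the cell that carries them; Sema6a has been studied at motor exit points, where boundary cap cells confine motor neuron bodies to the cord. Sema6d read -0.06, -0.07 and -0.28 on knockout arrays A to C, against 0.12, 0.30 and 0.06 on wild-type arrays A to C. All 3 knockout arrays lay below all 3 wild-type arrays, with knockout C lowest. The difference was -0.30 (SE 0.09, 95% interval -0.51 to -0.08), a 1.23-fold lower value (adjusted p = 0.812 in limma). With single arrays left out it lay between -0.35 and -0.22 and stayed past the unadjusted threshold of 0.05 each time.

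Sema6c, a ligand of the same class, was at -0.04, -0.10 and -0.19 on knockout arrays A to C, against 0.05, 0.04 and 0.11 on wild-type arrays A to C. Again the groups did not overlap, and knockout A and wild-type B were the nearest arrays. The difference was -0.18 (SE 0.05, interval -0.30 to -0.05; adjusted p = 0.812), and it stayed between -0.21 and -0.14, past the unadjusted threshold, with single arrays left out. With a term for the arrays of high Xist, where the genotypes are compared through knockout A, Sema6d was at -0.22 and Sema6c at -0.11, neither past the unadjusted threshold.

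The other class 6 genes were lower as well but overlapped between genotypes. Sema6a was at -0.16 (SE 0.11), with wild-type B at 0.33 and the other arrays between -0.17 and 0.07; without wild-type B its difference was -0.05. Sema6b was at -0.09 (SE 0.07), and at -0.15 without knockout B, where it passed the unadjusted threshold; without knockout C it was -0.04. A second row for that gene was also at -0.09. All 4 class 6 genes were thus lower, as were 44.9% of all genes, and 2 of the 4 were lower without overlap, as were 4.37% of all genes; so small a class was not tested.

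Sema4a, a transmembrane ligand of B- and D-type plexins known from immune cells and vessels, was the third gene past the unadjusted threshold. It was at -0.14, -0.03 and -0.06 on knockout arrays A to C, against 0.03, 0.35 and 0.21 on wild-type arrays A to C. The wild-type arrays spread more widely than the knockout arrays (SD 0.16 against 0.06), and the groups did not overlap. The difference was -0.27 (SE 0.09, interval -0.48 to -0.06; adjusted p = 0.812). With the Xist term, where the genotypes are compared through knockout A, it was the 1 member past the unadjusted threshold (-0.34). In that setting 6.26% of all genes passed. Sema4a did not pass with an unequal-variance test or without knockout A, where its difference was -0.24. Without wild-type A it was -0.35 and without wild-type B -0.19, both past the threshold.

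**Figure D3:**
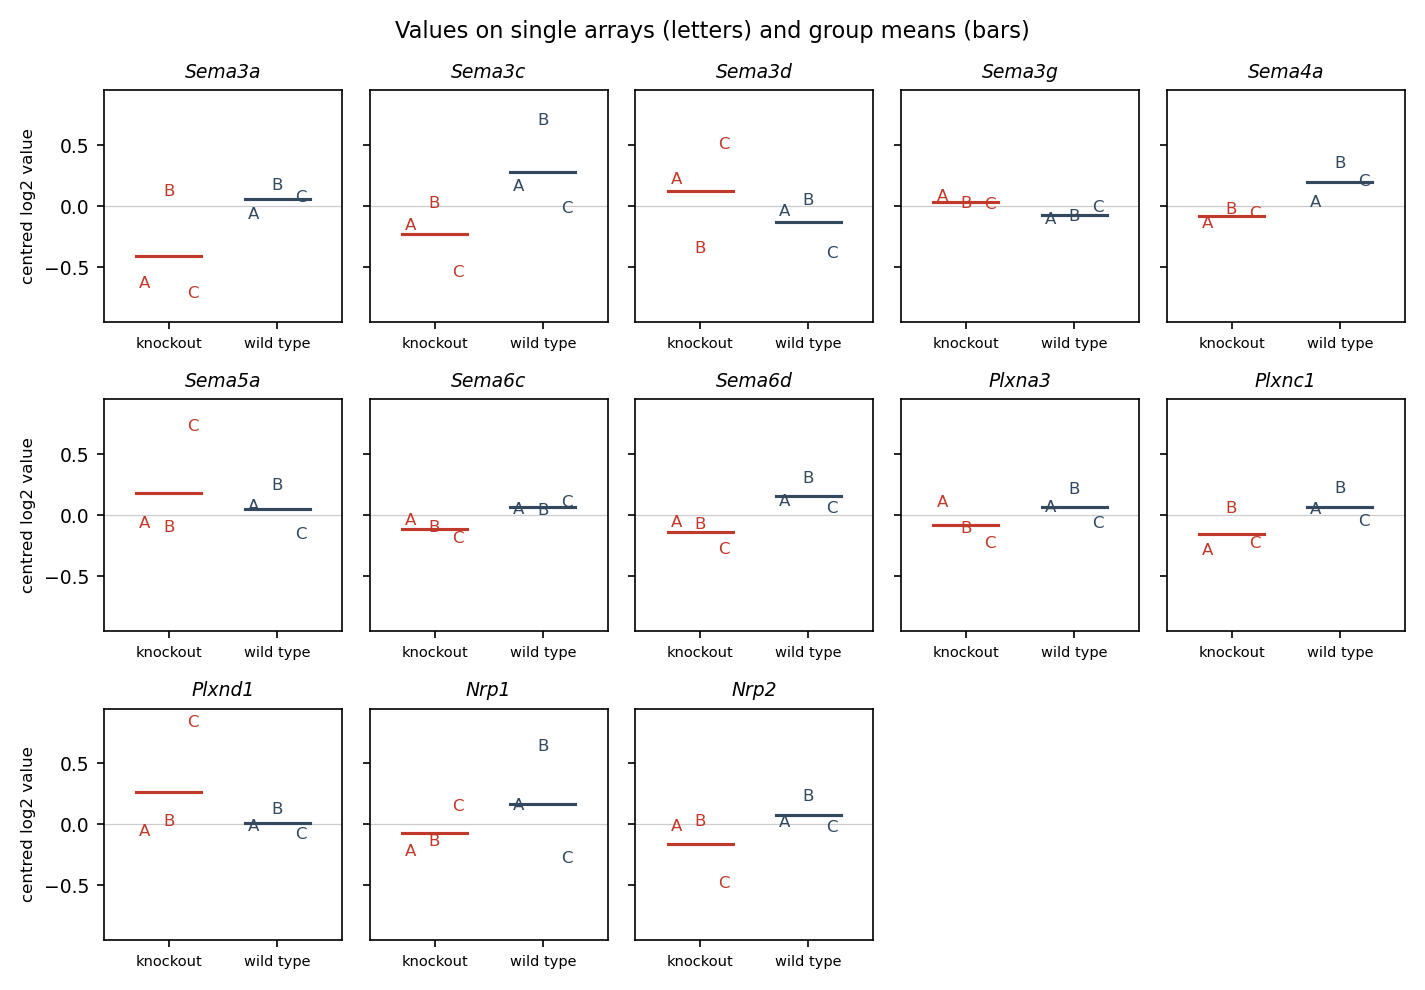
Centred log2 values of the 13 genes described array by array; letters are the arrays A, B and C of each genotype and bars the group means (n = 3). Knockout lies below wild type without overlap in Sema4a, Sema6c and Sema6d and above it in Sema3g, while knockout C or wild-type B sets the mean apart in Plxnd1, Sema5a and Nrp1.

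The remaining class 4 genes showed little. Sema4c, a ligand of plexin B2, was higher without overlap, at 0.12 (SE 0.06), and passed the unadjusted threshold without wild-type B (0.17). Sema4f, a transmembrane semaphorin of neurons, was at -0.14 (SE 0.09), and at -0.06 without knockout C and -0.07 without wild-type B. Sema4b (0.09), Sema4g (-0.05) and Sema4d, the ligand of plexin B1 (-0.02), had intervals within -0.17 and 0.28. A second row of Sema4d stood at 0.06 (SE 0.12) and, with 0.33 in knockout C, did not follow the first. Sema7a, which signals through plexin C1 and integrins, was at -0.12 (SE 0.11) and at -0.02 without wild-type B.

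The class 5 genes, whose proteins carry thrombospondin repeats, rested on knockout C in the case of Sema5a. Sema5a was at -0.07, -0.10 and 0.72 on knockout arrays A to C, against 0.07, 0.24 and -0.16 on wild-type arrays A to C. Only knockout C, the array with the high mesenchyme and vessel medians, was high. The difference of 0.13 (SE 0.24) was -0.14 without it. Sema5b was at 0.01 (SE 0.07, interval -0.16 to 0.18).

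Upstream sequences are shown for the 3 genes past the unadjusted threshold and for the genes of lowest p among Sema3 genes and neuropilins, since a transcription factor is the mutated gene. The plexin of lowest p, Plxnc1, was chosen too but is not printed, as fewer than 200 bases of its window lay outside its annotated span. That 250-base window held 2 matches to the motif described below. They are credited to RefSeq, build GRCm38.p6, and run 5′ to 3′ on the gene's strand up to the last base before the gene's annotated span. Capitals mark matches to AAGTG or its reverse complement, a core of sites bound by homeodomain proteins of the NK2 class.
Sema6c (chr3:95160170-95160419, plus strand): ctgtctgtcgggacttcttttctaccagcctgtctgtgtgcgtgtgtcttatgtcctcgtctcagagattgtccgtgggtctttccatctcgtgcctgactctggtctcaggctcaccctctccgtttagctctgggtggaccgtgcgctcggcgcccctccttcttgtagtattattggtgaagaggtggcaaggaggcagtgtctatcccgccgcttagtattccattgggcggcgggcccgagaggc
Sema6d (chr2:124089719-124089942, plus strand): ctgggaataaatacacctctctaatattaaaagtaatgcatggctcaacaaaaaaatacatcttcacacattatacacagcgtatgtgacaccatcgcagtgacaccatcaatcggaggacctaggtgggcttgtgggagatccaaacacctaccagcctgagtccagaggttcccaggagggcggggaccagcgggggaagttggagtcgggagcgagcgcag
Sema4a (chr3:88461183-88461432, minus strand): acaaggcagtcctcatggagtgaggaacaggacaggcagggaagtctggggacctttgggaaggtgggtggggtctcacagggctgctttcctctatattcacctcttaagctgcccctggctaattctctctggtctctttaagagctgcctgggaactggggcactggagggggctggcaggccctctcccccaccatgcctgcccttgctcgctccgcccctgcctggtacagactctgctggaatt
Sema3c (chr5:17574566-17574815, plus strand): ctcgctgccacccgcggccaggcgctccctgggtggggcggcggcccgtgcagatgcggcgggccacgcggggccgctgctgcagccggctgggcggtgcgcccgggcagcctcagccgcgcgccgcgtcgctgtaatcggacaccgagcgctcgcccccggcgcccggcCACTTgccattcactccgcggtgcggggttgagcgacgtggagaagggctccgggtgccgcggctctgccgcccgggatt
Nrp2 (chr1:62703067-62703316, plus strand): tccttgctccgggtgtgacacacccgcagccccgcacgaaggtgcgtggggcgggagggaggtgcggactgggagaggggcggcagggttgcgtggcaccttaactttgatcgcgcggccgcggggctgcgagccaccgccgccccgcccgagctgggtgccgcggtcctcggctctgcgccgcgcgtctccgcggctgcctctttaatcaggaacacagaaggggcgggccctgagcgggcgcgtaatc
The pieces are 250 bases long, except that of Sema6d with 224. Among the printed pieces the only match lies in that of Sema3c and begins 80 bases before the start. Over the 250-base windows before the first listed start, 7 of the 26 members in the table held a match (26.9%), against 40.8% of 27025 genes. Matches are counted on both strands, and only this motif was searched. The members' windows were richer in G and C (median 64.6% against 52%), and composition was not matched. A window without these letters says nothing about binding elsewhere.

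Among the secreted ligands Sema3c and Sema3a had the largest differences of the family and also wide spreads. Sema3c, which signals through both neuropilins and in some cells attracts rather than repels axons, was at -0.16, 0.02 and -0.55 on knockout arrays A to C, against 0.16, 0.70 and -0.02 on wild-type arrays A to C. Knockout C was lowest and wild-type B highest, and knockout B exceeded wild-type C, so the groups overlapped. The difference was -0.51 (SE 0.22, interval -1.04 to 0.02; adjusted p = 0.812), a 1.42-fold lower value. It was -0.30 without wild-type B and -0.35 without knockout C. Without knockout B (-0.63) or wild-type C (-0.66) it passed the unadjusted threshold.

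Sema3a, the founding collapsin, which repels motor and sensory axons through neuropilin 1, was at -0.63, 0.12 and -0.72 on knockout arrays A to C, against -0.07, 0.17 and 0.07 on wild-type arrays A to C. 2 of the knockout arrays were far below the rest, and knockout B lay within the wild-type range. The difference was -0.47 (SE 0.22, interval -0.9997 to 0.07; adjusted p = 0.812). Without knockout B it was -0.73 and past the unadjusted threshold. Without knockout C it was -0.31. Its SD was 0.46 over the knockout arrays and 0.12 over the wild-type arrays.

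Sema3d, a repellent of neural crest and endothelial cells, was at 0.22, -0.35 and 0.51 on knockout arrays A to C, against -0.04, 0.04 and -0.39 on wild-type arrays A to C. Its high and low arrays were mixed between the genotypes. The difference was 0.25 (SE 0.23), 0.06 without knockout C and 0.49 without knockout B, where it passed the unadjusted threshold. Sema3g, a ligand of neuropilin 2 found in vessels, was at 0.08, 0.02 and 0.01 on knockout arrays A to C, against -0.11, -0.08 and -0.01 on wild-type arrays A to C. These groups did not overlap, and the nearest arrays were knockout C and wild-type C. The difference was 0.11 (SE 0.05), and it passed the unadjusted threshold with array weights, with an unequal-variance test or without wild-type C (0.13).

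The other secreted ligands were nearly level between the genotypes. Sema3e, which binds plexin D1 without a neuropilin, was at 0.08 (SE 0.05), Sema3f, the repellent that acts through neuropilin 2, at 0.03 (SE 0.05) and Sema3b at -0.01 (SE 0.07). Their 95% intervals lay within -0.17 and 0.20, inside 1.5-fold.

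Several of the secreted ligands sit in genomic clusters, so array values of neighbours could be set side by side. On chromosome 5 Sema3d and Sema3a are adjacent among protein-coding genes, with 3 such genes between Sema3a and Sema3e and 15 between Sema3e and Sema3c. In that order the differences were 0.25, -0.47, 0.08 and -0.51, so neighbours differed in sign. Knockout C, the lowest array of Sema3a and Sema3c, was the highest of Sema3d. Sema3b and Sema3f, on chromosome 9 with 3 genes between them, were both near 0.

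No plexin separated the genotypes. Plxnc1, the receptor of Sema7a, had the lowest p of the class. It was at -0.29, 0.05 and -0.23 on knockout arrays A to C, against 0.05, 0.22 and -0.05 on wild-type arrays A to C. Knockout A and C were below every wild-type array, and knockout B was among them, as in Sema3a. The difference was -0.23 (SE 0.11, interval -0.49 to 0.04). Without knockout B it was -0.33 and past the unadjusted threshold, and without wild-type B -0.15.

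Plxna3, the partner of neuropilin 2 in Sema3f signalling, was at 0.10, -0.10 and -0.23 on knockout arrays A to C, against 0.07, 0.21 and -0.07 on wild-type arrays A to C. The groups overlapped and the difference was -0.15 (SE 0.11), -0.24 without knockout A and -0.07 without knockout C. Plxna3 lies on the X chromosome, and knockout B and C, the arrays with high Xist, were lower than knockout A. With the Xist term, where the genotypes are compared through knockout A, its difference was 0.03. Whether its place on the X chromosome bears on these values was not tested. Plxnb3, the other X-linked plexin, was at 0.04 (SE 0.05) with all 6 arrays between -0.07 and 0.03.

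Plxnd1, the endothelial receptor of Sema3e, rested on knockout C in the same way as Sema5a. It was at -0.06, 0.02 and 0.83 on knockout arrays A to C, against -0.02, 0.12 and -0.08 on wild-type arrays A to C. The other 5 arrays lay between -0.08 and 0.12, and knockout C was far above them. On that array the 8 vessel markers ranged from 0.05 (Cldn5) and 0.25 (Tie1) to 1.08 (Kdr) and 1.37 (Cdh5). Their part in the Plxnd1 value was not tested. The Plxnd1 difference of 0.26 (SE 0.23) was -0.03 without knockout C.

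The other A-type plexins, receptors of the Sema3 and class 6 ligands, were Plxna4 at -0.13 (SE 0.10), Plxna1 at 0.03 (SE 0.06) and Plxna2 at -0.02 (SE 0.11). Plxna4 was at -0.03 without wild-type B, its highest array at 0.28. Plxna2 stood at -0.29 in knockout C and 0.16 in knockout B, and its sign depended on them: 0.11 without the former and -0.12 without the latter. The B-type plexins, receptors of class 4 semaphorins, were Plxnb1 at -0.07 (SE 0.09), with knockout C at -0.25, and Plxnb2 at 0.02 (SE 0.07), with wild-type B at -0.17. For these 5 genes the interval lay inside 1.5-fold.

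Both neuropilins, the ligand-binding co-receptors of Sema3 proteins, were lower on the knockout arrays, and each difference rested on another array. Nrp1, which binds Sema3a and, in vessels, VEGF, was at -0.22, -0.14 and 0.14 on knockout arrays A to C, against 0.16, 0.64 and -0.28 on wild-type arrays A to C. The wild type held both the highest and the lowest array. The difference of -0.24 (SE 0.23, interval -0.80 to 0.31) was -0.01 without wild-type B and -0.47, past the unadjusted threshold, without wild-type C. Nrp2, which binds Sema3f and Sema3c, was at -0.01, 0.02 and -0.48 on knockout arrays A to C, against 0.01, 0.23 and -0.02 on wild-type arrays A to C. Only knockout C was low. The difference of -0.23 (SE 0.15, interval -0.59 to 0.13) was -0.07 without knockout C.

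No plexin or neuropilin was past the unadjusted threshold, so no pair of ligand and receptor could have both genes past it. The differences are set side by side as a description. For Sema3a, its co-receptor Nrp1 and its plexin Plxna4, the differences were -0.47, -0.24 and -0.13, all lower, while the A-type plexin Plxna1 was at 0.03. Sema3a had its lowest values on knockout A and C, whereas Nrp1 had its lowest on wild-type C. For Sema3f, Nrp2 and Plxna3 they were 0.03, -0.23 and -0.15. Sema3e and Plxnd1 were at 0.08 and 0.26, of which the latter rests on knockout C. Sema6d and Sema6c, at -0.30 and -0.18, had the A-type receptor Plxna1 at 0.03. Sema6a at -0.16 had the A-type plexins Plxna2 at -0.02 and Plxna4 at -0.13. Sema7a and Plxnc1 were at -0.12 and -0.23, and Sema4d and Plxnb1 at -0.02 and -0.07. Each value is a difference between the same 6 arrays, so the genes of a pair share the arrays' other differences.

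The extreme values of the family lay most often on the arrays that stood apart. Wild-type B held the highest value of 14 of the 31 members (45.2%), against 18.7% of all genes. Knockout C held the lowest value of 12 members (38.7%), against 19.6% of all genes. It also held the highest value of 4 members (12.9%), Sema3d, Sema5a, Plxnb2 and Plxnd1, against 27.4% of all genes. Wild-type B was the array with the lowest cell cycle and highest neuronal median, and knockout C that with the lowest neuronal and highest mesenchyme and vessel medians. The part of these in the members' values was not tested gene by gene, beyond the values without each array. Without wild-type B, 21 members were lower on the knockout arrays, and without knockout C 20 were, compared with 19 of 31 on all arrays.

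**Figure D4:**
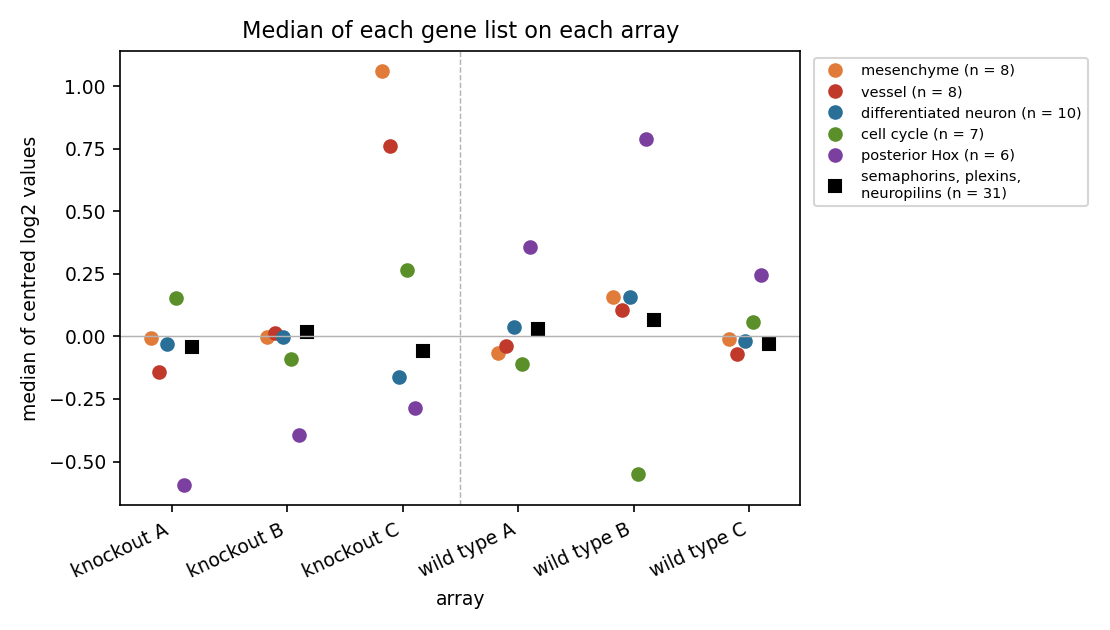
Median centred log2 value of each gene list on each array (points; list sizes in the legend), beside the median of the 31 semaphorin, plexin and neuropilin genes (squares). The mesenchyme and vessel medians are high on knockout C, and the cell cycle median is low on wild-type B. The posterior Hox medians separate the genotypes, and the family's median stays between -0.06 and 0.07.

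Other genes of semaphorin signalling were compared from a list of 45 co-receptors, cytoplasmic effectors and processing proteases, of which 44 were measured. Of these 27 were lower and 17 higher on the knockout arrays, their median was -0.04, and none passed adjustment. Only Met, a receptor tyrosine kinase that associates with B-type plexins, had an unadjusted p under 0.05, that is 1 of 44, against 6.06% of all genes. Met was at -0.18, -0.01 and -0.03 on knockout arrays A to C, against 0.47, 0.41 and 0.01 on wild-type arrays A to C. The difference was -0.37 (SE 0.13; adjusted p = 0.812), with wild-type C much nearer the knockout arrays than the other wild-type arrays. Separate groups were seen in 3 of the 44 genes, against 11.2% of all genes. All 3 were lower, Met and the cytoplasmic effectors Arhgef11 (-0.05) and Arhgap35 (-0.10); 4.37% of all genes were lower without overlap.

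Among co-receptors 6 of 11 were lower, the furthest being Chl1, an adhesion molecule of the L1 family, at -0.41 (SE 0.29), with knockout C at -1.04. The related adhesion molecules L1cam and Nrcam, which take part in Sema3a and Sema3b responses, were at -0.26 (SE 0.15) and -0.35 (SE 0.15), with knockout C lowest in both at -0.44 and -0.60. The co-receptor Cntn2 went the other way, at 0.26 (SE 0.13). Kdr, a VEGF receptor, was at 0.40 (SE 0.30), with knockout C at 1.08 and the other arrays between -0.15 and 0.14. Of the 30 measured effectors 21 were lower, with differences from -0.25 to 0.12. Crmp1, a mediator of growth cone collapse, was at -0.25 (SE 0.12), the kinase Fyn at -0.07 and the GTPase Rac1 at 0.01. Gipc1 was at -0.25 (SE 0.11), and Sh3bp1 was higher, at 0.12 (SE 0.05). The interval lay inside 1.5-fold for 29 of the 30 effectors, these included. The 3 proteases Furin, Adam10 and Adam17 were at 0.03, 0.01 and 0.15.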

How the data were processed

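RNA from E11.5 cervical cord was isolated by column, amplified to sense-strand cDNA and tagged with biotin, per the labels' protocols. The authors made the deposited log2 values with RMA, per the submitters' processing notes; its settings are not given in the sources used here, nor is the log base, taken as 2. Every one of the 28791 rows complete over 6 arrays had a median of 0 within 1e-06, so rows had been centred; 24 further rows had no value on wild-type C, so their fit used 5 arrays. That centring leaves differences unaltered and hides levels.

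Symbols came from the platform's annotation; the 31 members had 33 rows, and all 31 symbols matched RefSeq. Each gene is shown by the complete row with most accessions. limma 3.58.1 (R 4.3.3; lmFit, eBayes, genotype only) was fitted on all 28815 rows with Benjamini-Hochberg adjustment at 0.05, and was tested on simulated data. SDs are over 3 arrays; SEs and intervals are limma's. Class medians carry no test. Members, marker lists, partners and alternatives were chosen with earlier results of these data known. Values are given array by array for members at unadjusted p under 0.05, the 2 of lowest p per class, those with an SD over 0.3 and both neuropilins; partners at unadjusted p under 0.05 and, chosen after their values were seen, further partners are named. Figures used matplotlib 3.10.9. The 14 alternatives were the letter as a block, quantile normalization, centred arrays, array weights, a robust prior, an unequal-variance test, a term for high Xist, the mean over a gene's rows, and each array left out; the closing section gives their effect. The labelled tissue could not be checked against levels.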

Additional observations from a re-analysis of the deposited data

How the results depend on the processing

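Signs were kept by 21 of the 31 members under all 14 alternatives, and the other 10 had differences of 0.26 or less. Some alternatives could not change a sign. The block, the robust prior and the unequal-variance test leave every difference as it was. The mean over rows alters only the 2 members with a second row. No member passed adjustment under any alternative. Genes past it numbered 0 to 4 with single arrays left out; the 4, without knockout A, were Xist, Eif2s3y, Kdm5d and Uty. Members at an unadjusted p under 0.05 numbered 3 with all arrays and 2 to 8 with single arrays left out. There were 8 without knockout B, when 11.1% of genes passed, and 6 without wild-type C. With the letters as a replicate block there were 7 (9.74% of genes), with Sema3a, Sema3c, Sema4f and Plxnc1 gained, and Nkx2-9 also passed. With the Xist term there was 1 (6.26% of genes). Same-lettered arrays deviated together across genes at r of 0.16, 0.22 and 0.02 for A, B and C. Between unlike letters r ran from -0.19 to 0.04. The A and B arrays each correlated best with their own letter, but neither C array did. Pairing is not stated by the labels, so the letters were used as a block only as an alternative. Members without overlap numbered 5 with all arrays (11.2% of genes) and 5 to 12 with single arrays left out (12 without wild-type C, when 24.7% of genes did not overlap; 10 without knockout B, 28.4%). With single arrays left out the medians ranged from -0.0042 to 0.067 for Sema3, -0.15 to -0.046 for Sema4 to Sema7, -0.10 to 0.00049 for plexins, -0.37 to -0.08 for neuropilins, -0.10 to -0.033 for the family and -0.065 to -0.013 for partners.

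Sign changes with single arrays left out gave ranges of -0.048 to 0.041 for Sema3b, -0.0042 to 0.073 for Sema3f, -0.059 to 0.025 for Sema4d, -0.14 to 0.28 for Sema5a, -0.052 to 0.051 for Sema5b, -0.12 to 0.11 for Plxna2, -0.14 to 0.027 for Plxnb1, -0.045 to 0.062 for Plxnb2 and -0.028 to 0.42 for Plxnd1. Plxna2 was at 0.028 with quantile normalization and 0.026 with array weights, and Sema4d at 0.022 as the mean of its rows. With the Xist term, where the genotypes are compared through knockout A, Sema5a was at -0.12 and Plxnd1 at -0.068. In that setting Plxna2 was at 0.036, Plxna3 at 0.032 and Plxnb1 at 0.069. The causes were not tested. Signal over background could not be seen, and 3 arrays a group limit the precision.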
